A study of Mus musculus with 9 samples.

Results

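The genes described here are 7 matrix metalloproteinases (Mmp2, Mmp3, Mmp9, Mmp10, Mmp13, Mmp14 and Mmp19) and 3 tissue inhibitors of metalloproteinases (Timp1, Timp2 and Timp3). They were listed by name, with earlier results of these data known, and their 10 rows were read from a table of 56289 genes. RNA came from cultures of RAW264.7, a mouse line labelled as BALB/c macrophages and grown in DMEM with 10% FBS. Of 9 paired-end libraries, 3 came from control cells given neither TNF-α nor WBT (Con). Another 3 came from cells given recombinant human TNF-α at 20 ng/ml (TNF-α), and 3 from cells given the same TNF-α with WBT at 1.0 μg/ml (TNF-α+WBT). For the treated groups 24 h is stated. In its cytokine assays the study kept control cells in PBS over the same 24 h, and it chose the sequenced groups by those assays. WBT is the Wangbi tablet, a Chinese herbal medicine used in rheumatoid arthritis, and the sample labels write the group as WBP. All 3 groups share the line and the medium, and no group received WBT without TNF-α. The study calls the libraries biological replicates, but the labels do not say which cultures they came from, so a p-value here measures only the spread between these libraries.

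Matrix metalloproteinases are zinc-dependent proteases that cut collagens and other components of the extracellular matrix. Most are made as inactive precursors, and the TIMP proteins block the active enzymes. In inflamed joints, TNF-α is known to raise several of them in synovial fibroblasts and macrophages. MMP-14 sits in the cell membrane and, with TIMP-2 as a bridge, activates the precursor of MMP-2.

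Values are FPKM, fragments per kilobase of transcript scaled to library depth, as deposited by the authors. Estimated depth was 16826246 to 26053646 fragments per library, with group medians of 21588606 in Con, 21065611 in TNF-α and 18308027 in TNF-α+WBT. The estimate uses the step that a single fragment adds to low values, so fragment numbers given below are approximate and their intervals cover counting error only. The labelled cell type was not borne out by its markers. Of 16 macrophage genes only Cd14 was above 1 FPKM in all 9 libraries, and 7 were listed at 0 throughout, Ptprc, Spi1, Adgre1, Itgam, Tyrobp, Ctss and Cybb. Summed macrophage markers came to 6.14 to 7.5 FPKM in Con, 7.11 to 8.15 in TNF-α and 7.24 to 8.81 in TNF-α+WBT. Of 12 fibroblast genes, 10 were above 1 FPKM in all libraries (sums 4260 to 4580, 4470 to 4620 and 4450 to 4560 FPKM), and of 12 Schwann cell genes also 10 (sums 962 to 1020, 784 to 847 and 848 to 879 FPKM). None of 8 neutrophil or 6 endothelial markers reached that level, and of 8 osteoclast markers only Nfatc1 did, with Acp5 at 0. Endogenous Tnf was listed at 0 in every library. On the second principal component, which held 13.5% of the variance, TNF-α+WBT replicate 3 (-57.6) and TNF-α replicate 3 (39.5) lay apart from the rest. The part of these features in the results below was not tested, and in bulk RNA fewer cells of a type cannot be told apart from less RNA per cell.

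Mmp3, Mmp10 and Mmp13 lie on chromosome 9, in a cluster of 10 matrix metalloproteinase genes that spans 427 kb (chr9:7272514-7699585, GRCm38, GENCODE M21). Their promoters are shown because these neighbours all carry the same pair of motifs close to their start. The promoters of the other cluster genes were not examined one by one, and a link between motifs and expression was not tested. The 100 bases before each RefSeq start (GRCm38.p6, plus strand) are printed below, with the AP-1 motif TGAGTCA on either strand and the TATA box motif TATAAA in capitals. The windows are chr9:7445722-7445821 for Mmp3, chr9:7502242-7502341 for Mmp10 and chr9:7272414-7272513 for Mmp13.
Mmp3: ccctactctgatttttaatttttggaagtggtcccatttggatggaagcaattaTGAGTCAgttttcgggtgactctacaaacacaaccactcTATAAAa
Mmp10: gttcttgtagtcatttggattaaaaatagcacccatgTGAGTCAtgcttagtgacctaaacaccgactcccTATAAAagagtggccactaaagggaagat
Mmp13: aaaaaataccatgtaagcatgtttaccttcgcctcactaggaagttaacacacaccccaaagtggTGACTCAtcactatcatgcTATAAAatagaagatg

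The first base of the AP-1 motif lay 46 bases before the start in Mmp3, 63 in Mmp10 and 35 in Mmp13, where it reads TGACTCA, the same motif on the other strand. The TATA box motif began 7, 29 and 16 bases before the start, in the same order, and it did not overlap the AP-1 motif in any of them. GENCODE M21 places the Mmp10 start 10 bases further downstream. Of 32851 mouse promoters in RefSeq, 1.88% held the AP-1 motif in this 100-base window, 5.56% held the TATA box motif, and 49 (0.149%) held both. These shares are background only, since the printed promoters were picked for holding both motifs. RefSeq promoters matched 7 of the 10 genes. None was at hand for Mmp2, Mmp9 and Mmp19, so no motif was searched in these. Neither motif was found in the 300-base windows of Mmp14, Timp1, Timp2 or Timp3, where 5.2% of all such windows hold the AP-1 motif and 13.6% the TATA box motif. A single form of the NF-κB consensus, 10 letters long, was searched as well. It was found in none of the 7 promoters, in either window. Of all promoters, 0.597% hold it in the 100-base window and 1.63% in the 300-base window. Other forms of the NF-κB site were not searched, so these promoters, and that of Mmp9, may still hold one. The motif matches describe letters in a window and say nothing of whether a factor binds there.

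In Con, the levels of the 10 genes spanned more than 4 orders of magnitude. Mmp2, which encodes the gelatinase MMP-2, was highest at 589.3 ± 2.25 FPKM (SD, n = 3), followed by Timp2 at 228.4 ± 1.3 and Mmp14 at 148.0 ± 2.13 FPKM. Thus the protease, its membrane activator and the inhibitor that bridges them were the 3 most abundant. Timp3, Timp1 and Mmp19 came next, at 51.56 ± 2.24, 27.77 ± 2.47 and 8.947 ± 1.15 FPKM. The last places went to Mmp10 (0.2129 ± 0.156 FPKM), Mmp9 (0.1821 ± 0.043), Mmp13 (0.03803 ± 0.0315) and Mmp3 (0.03193 ± 0.0093). Neighbours in this order did not overlap except Mmp10 with Mmp9 and Mmp13 with Mmp3. With TNF-α, Mmp9 moved above Mmp10 and Mmp3 above Mmp13, and no neighbours overlapped. The order of the means in TNF-α+WBT was that of TNF-α, but there Mmp3 overlapped both Mmp10 and Mmp13. Mmp2 alone made up 78.93 ± 0.115% of the summed FPKM of the 7 proteases in Con, 73.67 ± 1.56% in TNF-α and 76.13 ± 0.611% in TNF-α+WBT.

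**Figure D1:**
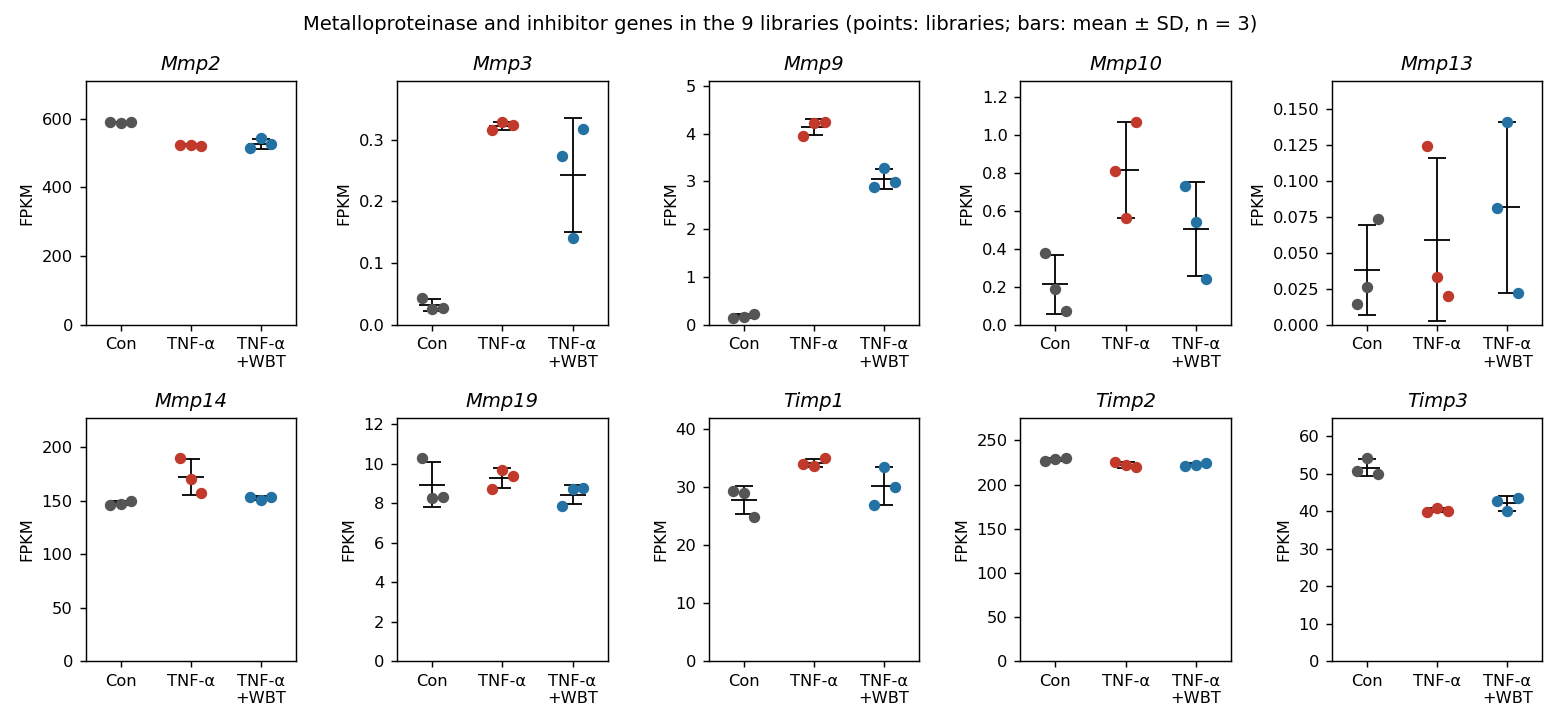
FPKM of each metalloproteinase and TIMP gene (vertical axes, linear from 0, a separate scale for each gene) in the 3 libraries of each group, with the mean and SD. Mmp9 lay between 0.149 and 0.231 FPKM in Con and between 3.95 and 4.25 in TNF-α, while Timp2 stayed between 219.4 and 229.7 FPKM in all 9 libraries.

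The comparison of TNF-α with Con asks which of these genes respond to the cytokine. Mmp9 and Mmp3 rose, and Mmp2 and Timp3 fell, at an adjusted p under 0.05. That is 4 of 10 genes, against 4.86% of the 25417 genes tested. Of those tested, 2.94% were called higher and 1.93% lower. At the thresholds of the study (unadjusted p under 0.05 and a fold over 2), Mmp9, Mmp3 and Mmp10 passed, 3 of 10 against 2.42% of all genes. At an unadjusted p under 0.05 stood 7 of the 10, against 16.1% of all genes. The groups did not overlap for 8 of the 10, against 21.2%, with 5 genes higher (11.1% of all genes) and 3 lower (10.2%). Because the 10 genes were chosen with earlier results known, these shares are description and not a test. All tests are limma on log2(FPKM + 0.1), with Benjamini-Hochberg adjustment over all 25417 genes, and folds on that scale understate changes of low genes. For a single gene in groups of 3, the smallest p that exact permutation allows is 0.1 (two-sided).

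Mmp9 (ENSMUSG00000017737, chr2:164940780-164955850, plus strand) encodes gelatinase B, a secreted protease of denatured and basement membrane collagens. Replicates 1, 2 and 3 read 0.149, 0.167 and 0.231 FPKM in Con, 3.95, 4.22 and 4.25 in TNF-α, and 2.89, 3.29 and 2.98 in TNF-α+WBT. All TNF-α libraries lay far above all Con libraries. The means differed 22.8-fold, and the log2 fold change was 3.92 (SE 0.15, 95% confidence interval 3.58 to 4.27, limma adjusted p 2.57e-06), rank 9 from the top of all genes tested. In estimated fragments the Con libraries held 12.3, 11.4 and 5.4 and the TNF-α libraries 263.8, 299.8 and 239.5. The summed and depth-scaled ratio was 30.1 (counting interval 20.8 to 45.3). In Con replicate 3, 72.99% of the Mmp9 value sat on a short transcript of 416 bases (ENSMUST00000137626) that read 0 in the other libraries. The full-length transcript of 3175 bases (ENSMUST00000017881) carried 100.0% in Con replicates 1 and 2 and 97.13% on average in TNF-α.

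Mmp3 (ENSMUSG00000043613, chr9:7445822-7455975) encodes stromelysin-1, which cuts proteoglycans and can activate other metalloproteinases. It read 0.0426, 0.0257 and 0.0275 FPKM in Con against 0.316, 0.329 and 0.323 in TNF-α. The groups lay well apart, though both were low. Con held about 2.0, 1.0 and 1.0 fragments per library and TNF-α about 12, 13.3 and 11. From 4 and 36 summed fragments the ratio was 9.79, with a counting interval of 3.51 to 37.9. The log2 fold change was 1.68 (SE 0.24, 95% confidence interval 1.13 to 2.23, limma adjusted p 0.00452). This value depends on the pseudocount, at 0.36 with 1, which is under the fold threshold, and 3.01 with 0.01, with adjusted p-values of 0.00584 and 0.00471.

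Mmp10 (ENSMUSG00000047562, chr9:7502352-7510240) encodes stromelysin-2. Its values were 0.379, 0.188 and 0.071 FPKM in Con and 0.812, 0.563 and 1.07 in TNF-α. The lowest TNF-α library lay above the highest Con library, but both groups were spread widely. Its log2 fold change was 1.64 (SE 0.46, 95% confidence interval 0.58 to 2.69), with an unadjusted p of 0.00701 and an adjusted p of 0.101 in limma. It thus passed the thresholds of the study and not the adjusted one. With a pseudocount of 1 the log2 fold change was 0.58 (adjusted p 0.0869), under the fold threshold, and with 0.01 it was 2.12. Summed fragments were 26 in Con and 86 in TNF-α, a ratio of 3.6. Its counting interval, 2.3 to 5.82, leaves out the spread between libraries.

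Mmp13 (ENSMUSG00000050578, chr9:7272514-7283331) encodes collagenase-3, a protease of fibrillar collagens of cartilage. Its values were 0.0144, 0.026 and 0.0737 FPKM in Con, 0.124, 0.0333 and 0.0198 in TNF-α, and 0.0817, 0.142 and 0.0222 in TNF-α+WBT. No library held more than 7.5 estimated fragments, and the groups overlapped. The log2 fold change with TNF-α was 0.17 (95% confidence interval -0.58 to 0.92, limma adjusted p 0.873). The fragment ratio of 1.81 had a counting interval of 0.597 to 6.07, so no difference was detected. Whether depth or the spread between libraries limits this comparison was not tested.

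Mmp2 (ENSMUSG00000031740) was the most abundant of the 10 and fell slightly. The Con libraries read 589.7, 586.9 and 591.3 FPKM, the TNF-α libraries 524.5, 524.3 and 519.7. Each group was tight, and the mean fell by 66.5 FPKM with TNF-α. This was a log2 fold change of -0.17 (SE 0.03, 95% confidence interval -0.24 to -0.10, limma adjusted p 0.016). The adjusted p was 0.0594 without Con replicate 3, 0.0501, 0.0594 and 0.0641 without TNF-α replicate 1, 2 or 3, and 0.0562 with the replicate number as a block, at fold changes between -0.18 and -0.17.

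Mmp14 (ENSMUSG00000000957, chr14:54431612-54445364) encodes MT1-MMP. It read 146.2, 147.3 and 150.3 FPKM in Con and 189.8, 170.5 and 157.0 in TNF-α. Every TNF-α library was above every Con library, with a spread of 16.5 FPKM (SD) among them against 2.13 in Con. Limma gave a log2 fold change of 0.22 (SE 0.06, 95% confidence interval 0.08 to 0.36), with an unadjusted p of 0.00655 and an adjusted p of 0.0964. Leaving out single libraries gave log2 fold changes from 0.15 to 0.28 and adjusted p-values from 0.0222, without TNF-α replicate 3, to 0.218, without Con replicate 1, and the lowest fold change came without TNF-α replicate 1.

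The spread of Mmp14 lay in a short transcript of 726 bases annotated as a retained intron (ENSMUST00000197947). It was given 34.7, 17.8 and 1.22 FPKM in the TNF-α libraries, which is 18.27%, 10.43% and 0.78% of the gene. In Con it read 1.81, 4.38 and 4.81 FPKM, and in TNF-α+WBT 2.68, 1.97 and 2.68. High values were therefore found in TNF-α replicates 1 and 2 and nowhere else. The full-length coding transcript of 2596 bases (ENSMUST00000089688) read 139.0, 138.8 and 141.4 FPKM in Con, 150.8, 147.4 and 151.6 in TNF-α, and 147.1, 144.7 and 145.7 in TNF-α+WBT. On this transcript the 3 groups did not overlap and were tight. With the dominant transcript in place of the gene, a setting chosen after seeing the data, the log2 fold change of TNF-α against Con was 0.10 (SE 0.02, limma adjusted p 0.0777) and that of TNF-α+WBT against TNF-α was -0.04 (adjusted p 0.892).

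**Figure D2:**
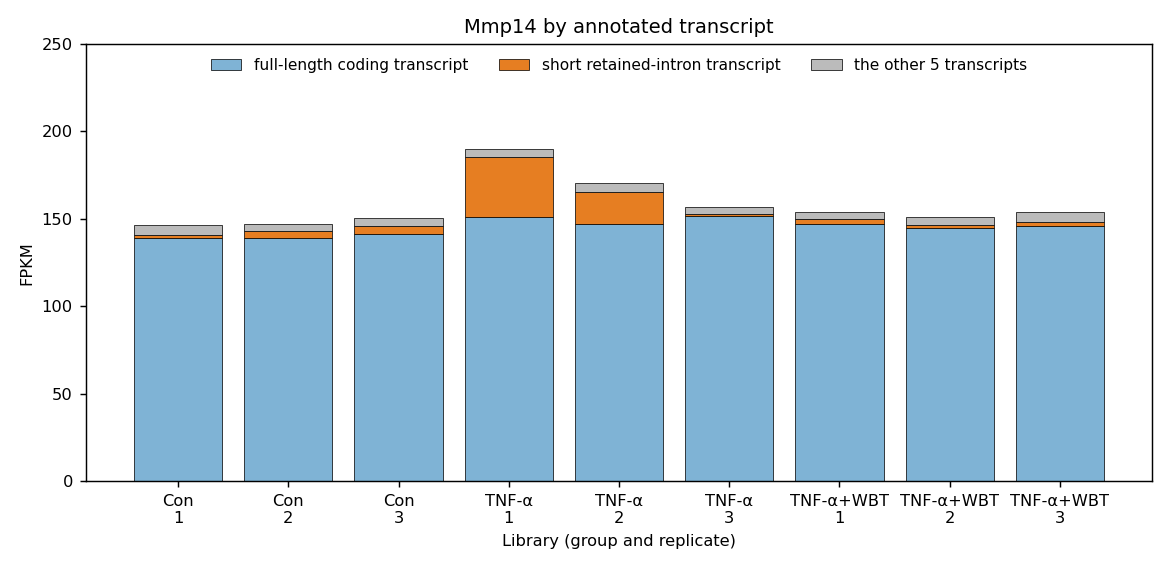
FPKM of Mmp14 (vertical axis, linear) in each library, stacked by annotated transcript, with the 5 least relevant transcripts added together. The retained-intron part is 34.7 and 17.8 FPKM in TNF-α replicates 1 and 2 and at most 4.81 FPKM in the other 7 libraries, while the full-length part is 138.8 to 151.6 FPKM in all 9.

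Mmp19 (ENSMUSG00000025355), a stromelysin-like protease, read 10.27, 8.27 and 8.30 FPKM in Con, 8.72, 9.68 and 9.39 in TNF-α, and 7.86, 8.70 and 8.75 in TNF-α+WBT. The groups overlapped, and the log2 fold change with TNF-α was 0.06 (95% confidence interval -0.16 to 0.27, limma adjusted p 0.852). Its exons overlap those of Tmem198b (12.61 to 15.92 FPKM) and Gm47093 on the opposite strand, and the counting is not stated to use strand, so reads of these genes cannot be told apart where they overlap. A retained-intron transcript of 349 bases (ENSMUST00000218021) read at most 1.15 FPKM. Its mean share of Mmp19 was 5.7% in Con (1.64% to 11.19%) and 8.3% in TNF-α (4.18% to 12.75%). In TNF-α+WBT the share was 0.15% (0.01% to 0.31%), and these differences were not tested.

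Timp1 (ENSMUSG00000001131, chrX:20870166-20874735) encodes a secreted inhibitor that binds the MMP-9 precursor. It read 29.4, 28.97 and 24.92 FPKM in Con and 33.91, 33.62 and 34.95 in TNF-α. The TNF-α libraries lay close together and above all Con libraries. The log2 fold change was 0.30 (SE 0.09, 95% confidence interval 0.10 to 0.50), with an unadjusted p of 0.00753 and an adjusted p of 0.106 in limma. Its 2 coding transcripts held 39.52% and 60.48% of the gene in Con and 39.89% and 60.11% in TNF-α.

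Timp2 (ENSMUSG00000017466) was nearly level over the 9 libraries. It read 227.1, 228.6 and 229.7 FPKM in Con, 225.7, 222.4 and 219.4 in TNF-α, and 221.6, 221.8 and 224.7 in TNF-α+WBT. TNF-α libraries all lay below the Con libraries by a small margin. Here the log2 fold change was -0.04 (95% confidence interval -0.10 to 0.02, limma adjusted p 0.57).

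Timp3 (ENSMUSG00000020044, chr10:86300372-86349506) encodes the inhibitor that binds to the matrix and also blocks ADAM17, the protease that releases TNF-α from the cell surface. Con libraries read 50.67, 54.1 and 49.89 FPKM and TNF-α libraries 39.76, 40.91 and 40.15. The groups were clearly apart. Timp3 fell by 0.35 on the log2 scale (SE 0.05, 95% confidence interval -0.46 to -0.25, limma adjusted p 0.00267), and this call was kept with each library left out in turn. Syn3, whose exons overlap Timp3 on the opposite strand, read at most 0.3645 FPKM.

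**Figure D3:**
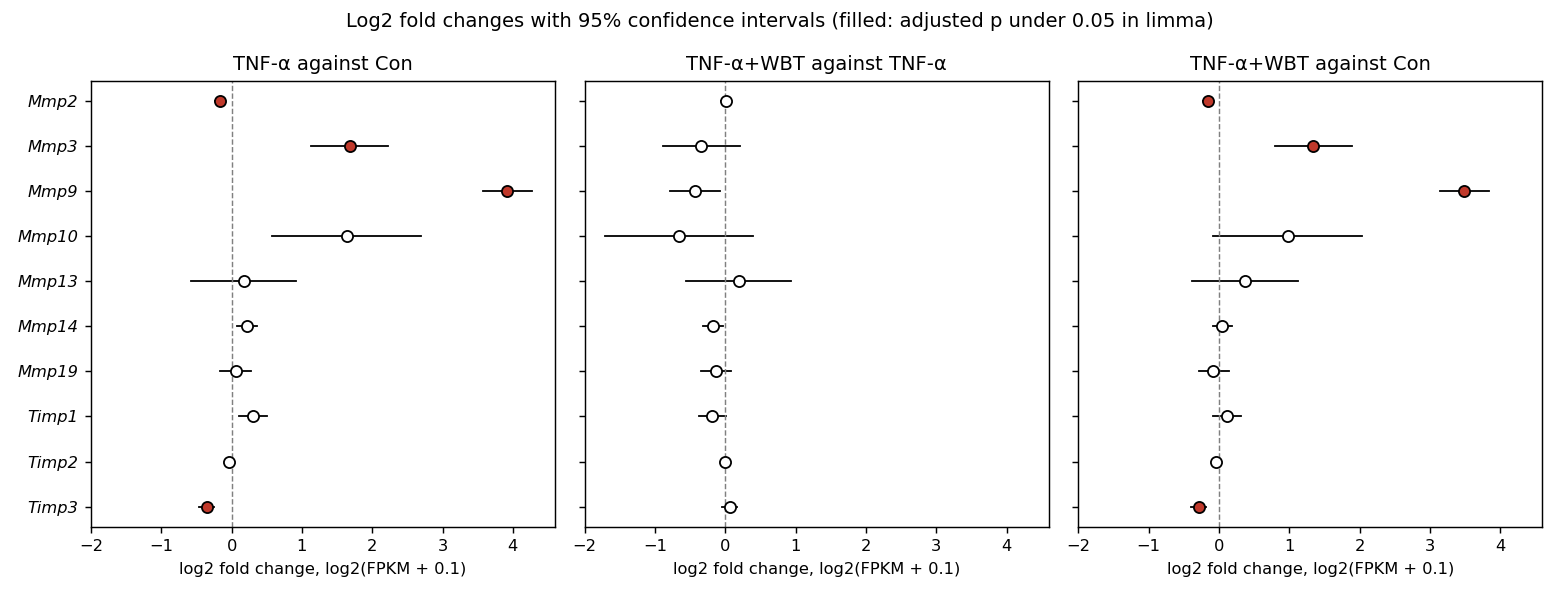
Log2 fold changes on the log2(FPKM + 0.1) scale (horizontal axes) with 95% confidence intervals for the 10 genes in the 3 comparisons, filled where the limma adjusted p was under 0.05. Mmp9 stands at 3.92 and 3.49 against Con, and no gene is filled in the comparison of TNF-α+WBT with TNF-α.

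Ratios of protease to inhibitor within a library are given as a description, and they did not all move one way. Mmp9 per Timp1 was 0.00669 ± 0.00224 in Con, 0.1217 ± 0.00451 in TNF-α and 0.1016 ± 0.00473 in TNF-α+WBT (SD, n = 3). Mmp2 per Timp2 was 2.58 ± 0.0173, 2.35 ± 0.0265 and 2.37 ± 0.07 in the same order, lower with TNF-α. Mmp14 per Timp2 was 0.6477 ± 0.00635, 0.7747 ± 0.0629 and 0.6867 ± 0.00737. In the TNF-α libraries this ratio was 0.841, 0.767 and 0.716, and it includes the retained-intron transcript that was high in replicates 1 and 2. The same transcript enters the protease sums and the share of Mmp2 in them. Between the inhibitors, Timp3 per Timp1 was 1.863 ± 0.14, 1.18 ± 0.0361 and 1.41 ± 0.2. Because the abundant proteases dominate, the summed FPKM of the 7 proteases was 746.7 ± 3.8 in Con, 709.9 ± 18.3 in TNF-α and 692.4 ± 13.4 in TNF-α+WBT. The 3 inhibitors summed to 307.8 ± 3.65, 296.9 ± 2.45 and 295.0 ± 3.51 FPKM, so that both sums were lower with TNF-α than in Con.

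The comparison of TNF-α+WBT with TNF-α asks what WBT did to cells under the cytokine. None of the 10 genes passed the adjusted threshold, where 0.00393% of all genes (1 of 25417) did, and none passed the thresholds of the study, where 1.12% did. At an unadjusted p under 0.05 stood 2 of the 10, Mmp9 and Mmp14, against 6.31% of all genes. Groups did not overlap for Mmp9, Mmp14 and Timp1, which is 3 of 10 against 11% of all genes, and in each the TNF-α+WBT libraries were lower (5.61% of all genes). These 3 genes were higher with TNF-α than in Con, and since both comparisons share the TNF-α libraries, opposite signs in them are not independent.

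For Mmp9 the highest TNF-α+WBT library, at 3.29 FPKM, lay below the lowest TNF-α library, at 3.95. The log2 fold change was -0.43 (SE 0.15, 95% confidence interval -0.78 to -0.08), with an unadjusted p of 0.0207 and an adjusted p of 0.707 in limma. From 513 and 803 summed fragments the depth-scaled ratio was 0.725. Its counting interval, 0.648 to 0.811, leaves out the spread between libraries. Leaving out each library in turn gave log2 fold changes from -0.48 to -0.39 and adjusted p-values from 0.637 to 0.877. Mmp9 in TNF-α+WBT was still 16.8-fold above Con by the means.

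For Mmp14 the TNF-α+WBT libraries read 154.0, 151.1 and 153.7 FPKM, with TNF-α replicate 3 at 157.0 as the nearest. Its log2 fold change was -0.17 (95% confidence interval -0.31 to -0.03), at an unadjusted p of 0.0223 and an adjusted p of 0.713 in limma, and it includes the retained-intron values described above. For Timp1 the values with WBT were 26.98, 33.5 and 29.96 FPKM, and replicate 2 lay just below the lowest TNF-α library, at 33.62. That log2 fold change was -0.19 (95% confidence interval -0.38 to 0.01, limma adjusted p 0.816).

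Of the stromelysins, Mmp3 was more spread with WBT (SD 0.0922 FPKM) than with TNF-α alone (0.00656), while Mmp10 was about as spread in both (0.247 and 0.254). Mmp3 read 0.273, 0.14 and 0.317 FPKM, with replicate 2 low and replicate 3 within the TNF-α range. Its log2 fold change against TNF-α was -0.34 (95% confidence interval -0.89 to 0.21, limma adjusted p 0.871). Mmp10 read 0.729, 0.541 and 0.24 FPKM, overlapping both other groups, with a log2 fold change of -0.66 (95% confidence interval -1.71 to 0.40, limma adjusted p 0.87). These intervals include no change as well as falls larger than 1.5 times.

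The remaining genes moved little with WBT. Timp3 read 42.66, 39.95 and 43.65 FPKM, a log2 fold change of 0.06 against TNF-α (95% confidence interval -0.04 to 0.17). Mmp2 read 513.6, 542.4 and 525.4 FPKM, spread around the TNF-α libraries, with a log2 fold change of 0.01 (-0.06 to 0.08). The intervals were -0.06 to 0.06 for Timp2, -0.35 to 0.08 for Mmp19 and -0.56 to 0.94 for Mmp13. For Mmp2 and Timp2 a change larger than 1.06-fold thus lay outside the interval, whereas for Mmp13 the interval was wide.

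The comparison of TNF-α+WBT with Con shares the Con libraries with that of TNF-α, so like calls in them are not independent. Against Con, TNF-α+WBT gave the same calls as TNF-α alone, with Mmp9 and Mmp3 higher and Mmp2 and Timp3 lower. That is 4 of 10 against 3.71% of all genes (2.31% higher and 1.4% lower). The log2 fold changes were 3.49 for Mmp9 (SE 0.15, limma adjusted p 7.43e-06), 1.34 for Mmp3 (SE 0.24, 0.0184), -0.16 for Mmp2 (SE 0.03, 0.0266) and -0.29 for Timp3 (SE 0.05, 0.0092). At the thresholds of the study Mmp9 and Mmp3 passed, against 2.29% of all genes, and at an unadjusted p under 0.05 these 4 genes did, against 14.7%. The groups did not overlap for 6 of the 10, against 19.5%, with Mmp3, Mmp9 and Mmp14 higher (10.2% of all genes) and Mmp2, Timp2 and Timp3 lower (9.25%). Mmp10 stood at 0.98 (95% confidence interval -0.08 to 2.03, limma adjusted p 0.383). The call for Mmp3 was lost without any single Con replicate and without TNF-α+WBT replicate 1 or 3, with adjusted p-values from 0.0524 to 0.0722. The call for Mmp2 was lost without any Con replicate, without TNF-α replicate 2 and without TNF-α+WBT replicate 1 or 3, with adjusted p-values from 0.054 to 0.092.

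The rest of the metalloproteinase family gives the background for these levels. Among 23 Mmp genes in the table, the 10 of the chromosome 9 cluster were all low, with a maximum of 1.07 FPKM in Mmp10 and at most 0.3292 FPKM in any other. Of the 13 genes elsewhere in the genome, 8 were above 1 FPKM in all 9 libraries, among them Mmp2, Mmp14 and Mmp19. Of the 16 metalloproteinases other than the 7 described above, 13 could be tested and 2 were listed at 0 throughout. With TNF-α, 1 rose and 2 fell, beside 2.94% and 1.93% of all genes tested. Mmp15, a membrane-anchored protease, rose from 6.759 ± 0.766 to 10.4 ± 0.163 FPKM (log2 fold change 0.62, SE 0.08, limma adjusted p 0.00248). Mmp17, which is attached to the membrane by a lipid anchor, fell from 30.42 ± 0.353 to 19.87 ± 0.858 FPKM (-0.61, SE 0.04, adjusted p 5.62e-05), and Mmp28 fell from 11.23 ± 0.212 to 8.067 ± 0.8 FPKM (-0.48, SE 0.07, adjusted p 0.00734). Mmp11 (25.2 ± 0.356 FPKM in Con and 27.81 ± 1.01 in TNF-α) and Mmp16 (6.913 ± 0.273 and 8.055 ± 0.488) did not pass. The median log2 fold change of the 13 was 0.13, beside 0.003 over all genes tested.

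**Figure D4:**
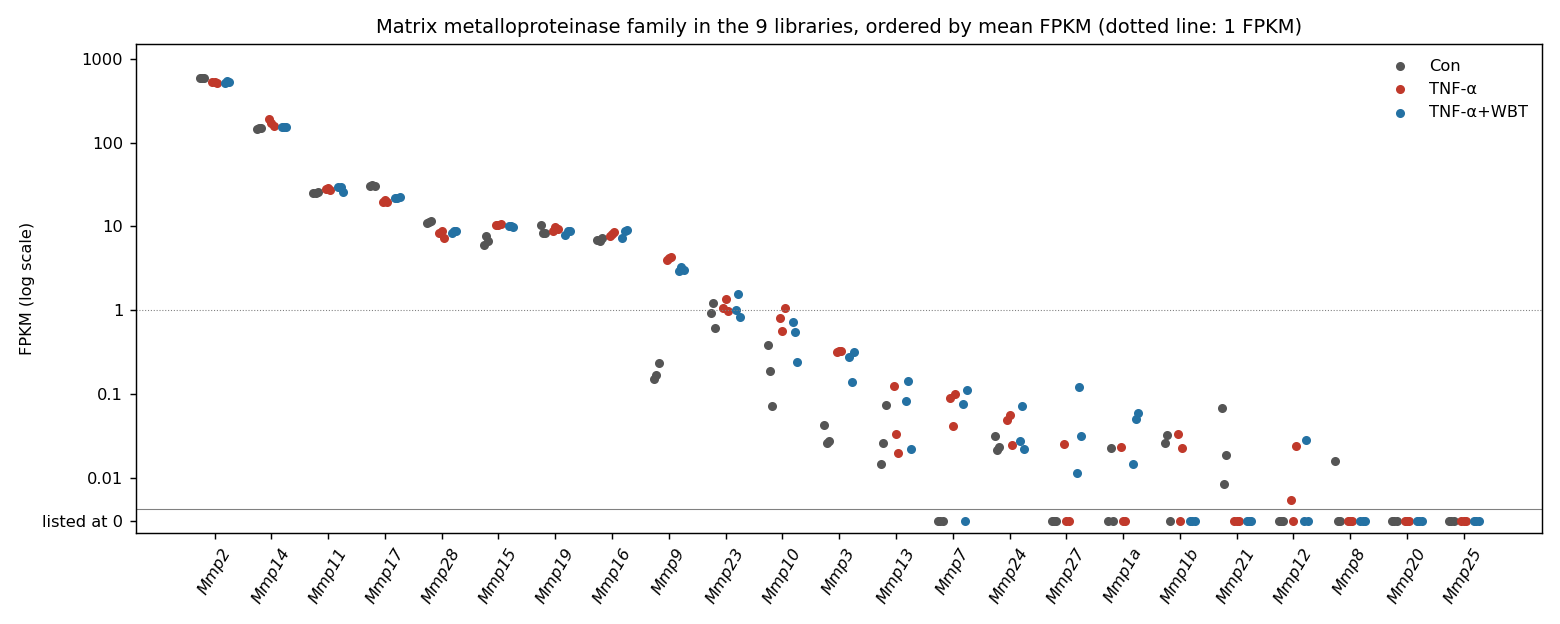
FPKM (vertical axis, log scale, with values listed at 0 on a separate line) of the 23 Mmp genes in the 9 libraries, ordered by their mean and coloured by group. The 8 genes from Mmp2 to Mmp16 are above 1 FPKM in all libraries, and Mmp9 lies under 1 FPKM in Con and above it in both TNF-α groups.

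Further proteases and inhibitors of the pericellular pathway were followed through 6 lists, which were chosen with earlier results of these data known. Of 17 ADAM and ADAMTS proteases, 6 rose and 1 fell with TNF-α, beside 2.94% and 1.93% of all genes tested. The list median was 0.17, beside 0.003 over all genes. Adamts1, an aggrecan-cutting protease, went from 24.63 ± 1.18 to 60.87 ± 1.87 FPKM (log2 fold change 1.30, SE 0.06, limma adjusted p 7.97e-06). Adamts7, which cuts the cartilage protein COMP, went from 24.86 ± 2.28 to 54.92 ± 2.88 FPKM (1.14, SE 0.07, adjusted p 3.1e-05), and Adam12 from 0.6473 ± 0.16 to 2.037 ± 0.134 FPKM (1.54, SE 0.18, adjusted p 0.00148). The others that rose were Adam17, Adam19 and Adamts4, and Adam10 fell, all 4 named after their values were seen to complete the count. Adam17 went from 15.53 ± 0.163 to 21.58 ± 0.908 FPKM (0.47, adjusted p 0.000464).

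Of 12 genes of plasminogen activation and precursor processing, 9 were tested, 1 rose and 1 fell, with a median of -0.04. For this list and those that follow, the shares over all genes tested are again 2.94% higher and 1.93% lower, and the median is 0.003. Serpine2, an inhibitor of plasminogen activators and thrombin, rose from 21.82 ± 2.02 to 57.94 ± 8.07 FPKM (log2 fold change 1.40, SE 0.11, limma adjusted p 0.000162). Plat, the tissue plasminogen activator, fell from 67.37 ± 0.877 to 53.44 ± 1.86 FPKM (-0.33, SE 0.04, adjusted p 0.00228). Of 8 cathepsins, 6 were tested and Ctsb rose by 0.17 (median of the list 0.22). Among 10 genes for docking, binding and uptake of metalloproteinases, 9 were tested, and Cd44 (0.31, adjusted p 0.0138), a cell surface receptor that binds MMP-9, and Sdc4 (0.25, adjusted p 0.0134) rose, with a median of 0.11. The list of 5 other inhibitors held 2 tested genes, and neither passed. Reck, a membrane-anchored inhibitor, stood at 5.395 ± 0.481 FPKM in Con. Pcolce, at 310.1 ± 29.1 FPKM, stands in that list although it is known as an enhancer of procollagen C-proteinase and not as an inhibitor of matrix metalloproteinases.

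With TNF-α+WBT against TNF-α no gene of these 6 lists passed the adjusted threshold or the thresholds of the study. At an unadjusted p under 0.05 stood 5 of 17 ADAM and ADAMTS genes, against 6.31% of all genes. These were Adam9, Adamts4, Adamts7, Adamts8 (at most 0.07795 FPKM) and Adamts10, all lower and named after their values were seen. The other lists held 1 of 13 other metalloproteinases (Mmp17, higher), 1 of 9 in plasminogen activation (Plaur, lower) and 1 of 9 in docking (Bsg, higher). List medians lay between -0.07 and 0.04, beside -0.002 over all genes. Against Con, TNF-α+WBT gave 6 higher and 0 lower in the ADAM and ADAMTS list, 1 and 2 among the other metalloproteinases, 1 and 1 in plasminogen activation, 2 and 0 in the cathepsins (Ctsb and Ctsh), 3 and 1 in docking and uptake (Cd44, Bsg and Sdc4 higher, Thbs1 lower), and 0 and 0 among the other inhibitors. Over all genes tested these shares were 2.31% and 1.4%.

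**Figure D5:**
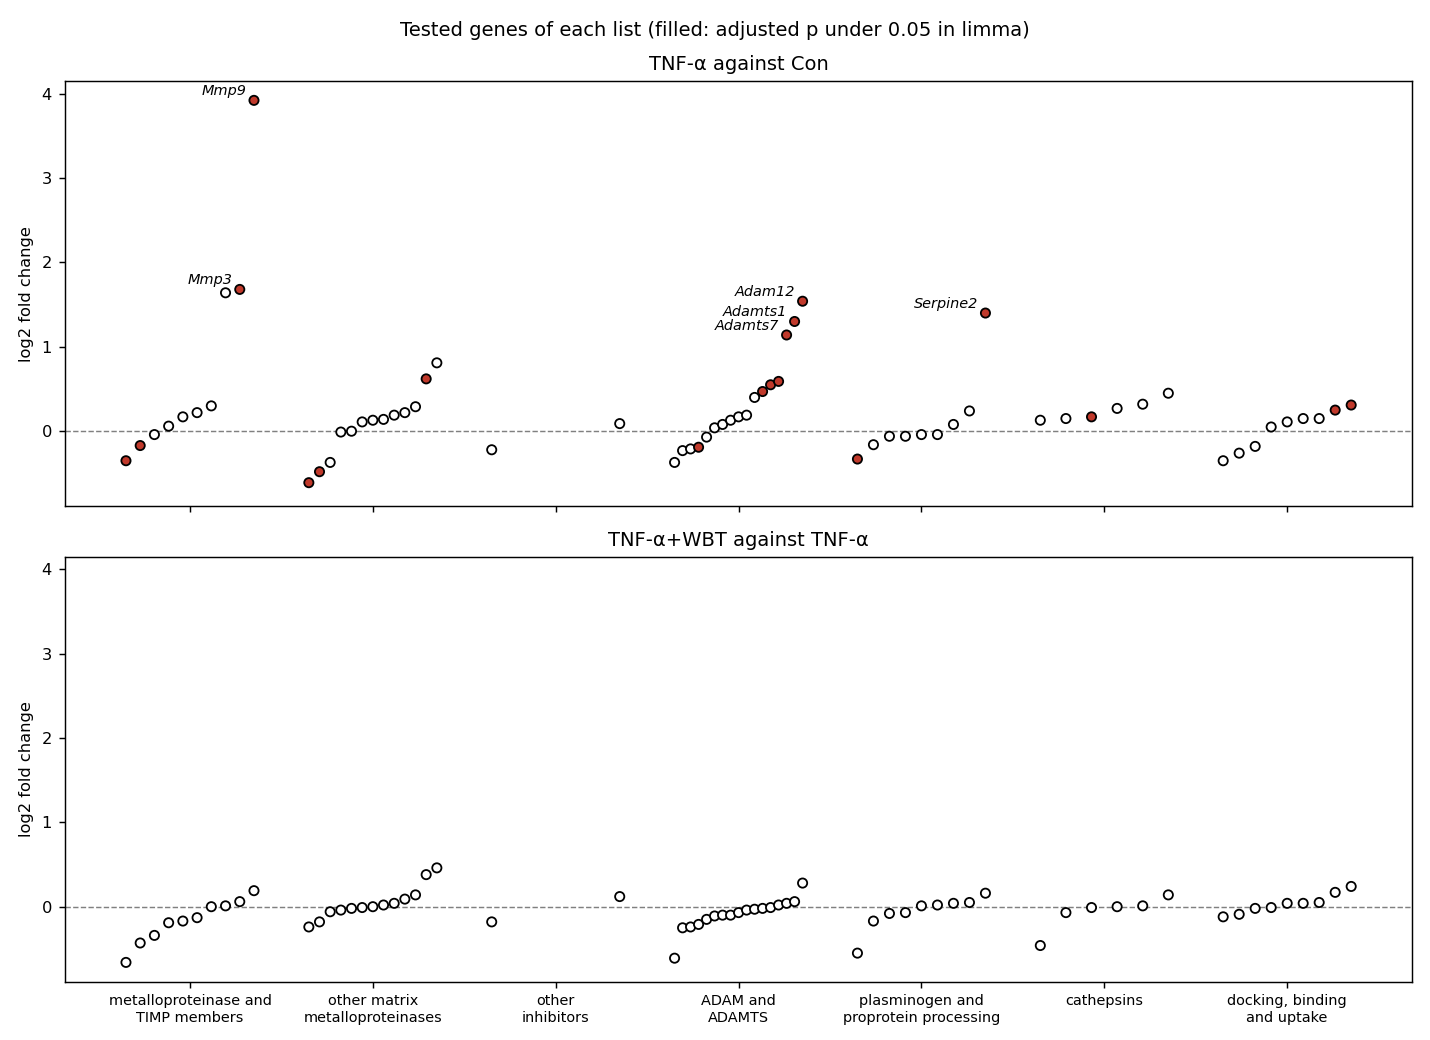
Log2 fold changes (vertical axes) of the tested genes of the metalloproteinase and TIMP set and of the 6 further lists, sorted within each list, for TNF-α against Con (top) and TNF-α+WBT against TNF-α (bottom), filled where the limma adjusted p was under 0.05. Filled points occur in the top panel only, and Mmp9 at 3.92 is the highest.

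The genes nearest in pattern over the 9 libraries to Mmp9, Mmp3 and Mmp10 were sought among 12686 genes that averaged 1 FPKM or more. Nearness was the root mean square difference of centred log2(FPKM + 0.1) values. That scale understates changes of low genes such as Mmp3, so another pseudocount could give other neighbours, which was not tested. Nearest to Mmp9 were Cd74 (0.15), the invariant chain of MHC class II, Ubd (0.23) and the complement component C3 (0.26). Cd74 had means of 1.1 FPKM in Con, 15 in TNF-α and 10.6 in TNF-α+WBT. Nearest to Mmp3 were the chemokine gene Ccl7 (0.17), Icosl (0.2) and Gdpd5 (0.22), with Ccl7 at means of 16.9, 50.9 and 40.0 FPKM. The profile of Mmp10 had less close neighbours, Stx11 (0.46), Tgtp2 (0.47) and Tgtp1 (0.48).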

How the data were processed

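RNA-seq FPKM values per gene and per transcript were deposited by the authors for 9 libraries. Their workflow names HISAT2, StringTie and Ballgown, and versions, annotation and genome build are not given in the sources used here. Of the gene IDs, 98.0% matched GENCODE M21. All value columns were mapped to a library by name. Fragments were estimated from the steps of low FPKM values in 10678 genes with a single transcript over 1000 bases. Per library, 55.9% to 60.2% of low values lay within 0.1 of a whole fragment, where 20% would by chance.

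Genes with a value over 0 in 3 or more libraries were compared on log2(FPKM + 0.1) in 1 limma model over all libraries (lmFit and eBayes, with an intensity trend and no replicate block), with Benjamini-Hochberg adjusted p-values. Counting intervals are 95% exact intervals of a ratio of Poisson counts. Motifs were searched on both strands. Tools were limma 3.58.1 in R 4.3.3, and scipy 1.17.1, pandas 2.3.3, matplotlib 3.10.9 and numpy 2.4.6 in Python 3.11.15.

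The members, gene lists and markers were chosen with earlier results of these data known. All members are named. From each list, up to 3 called genes with the largest change in each comparison are named, with any other metalloproteinase or inhibitor above 1 FPKM in all 9 libraries, and for the 3 members that changed most with TNF-α the 3 genes nearest in profile. Alternatives covered the pseudocount, filter, centring, model, replicate block and single libraries left out.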

Additional observations from a re-analysis of the deposited data

How the results depend on the processing

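Of 531 fold changes of the 10 genes under 18 alternatives, 500 kept their direction and side of the threshold. Mmp9 against Con and Timp3 against Con were called under every alternative that tested them. Counts moved as follows, in the order TNF-α against Con, TNF-α+WBT against TNF-α, and TNF-α+WBT against Con. Past the thresholds of the study stood 615, 284 and 583 genes, and 128, 8 and 105 with a pseudocount of 1, 1057, 639 and 1040 with 0.01, 207, 14 and 167 with a filter on a mean of at least 1 FPKM, and 1137, 568 and 1011 with limma-voom on estimated fragments. With the pseudocount of 1, and with that filter, which leaves Mmp3, Mmp10 and Mmp13 untested, 1 of the 10 genes stood past them against Con in either comparison, and with the filter 1 was higher at the adjusted threshold. Adjusted p-values gave 1236, 1 and 942 genes, 684, 6 and 515 with the dominant transcript of each gene, and 1833, 5 and 1342 with voom, whose genes lower than in Con numbered 813 beside 490 with TNF-α and 555 beside 356 with TNF-α+WBT. TNF-α+WBT against TNF-α gave 11 genes with a pseudocount of 0.01 and 2 in a model of only these groups. The model of only 2 groups left 1 gene higher and 1 lower for TNF-α+WBT against Con (Mmp3, adjusted p 0.0627, and Mmp2, 0.0979, were lost). Voom and the dominant transcript were chosen after seeing the data, and voom gave Mmp14 a log2 fold change of 0.142 with TNF-α (adjusted p 0.0053).

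Leaving out single libraries gave 823 to 1111, 0 to 10 and 579 to 826 genes at the adjusted threshold. Of the 10 genes it gave 2 to 3 higher and 1 to 2 lower for TNF-α against Con, 0 in either direction for TNF-α+WBT against TNF-α, and 1 to 2 higher and 1 to 2 lower for TNF-α+WBT against Con. Changes of sign touched only genes without a call, and each had an adjusted p of at least 0.918. Mmp19 with TNF-α turned to -0.004 with voom and -0.039 with the dominant transcript, and with WBT to 0.020 with the latter. Timp2 with WBT turned to -0.004 with median centring. Leaving out single libraries gave -0.104 to 0.35 for Mmp13 with TNF-α (negative without TNF-α replicate 1) and -0.131 to 0.024 for Mmp19 in TNF-α+WBT against Con (positive without Con replicate 1). With WBT it gave -0.009 to 0.03 for Mmp2 and -0.038 to 0.47 for Mmp13 (both negative without TNF-α+WBT replicate 2), and -0.009 to 0.012 for Timp2 (negative without replicate 3 of either group). The cause of these shifts was not tested.

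The libraries of a replicate number were not found to be paired, since correlations of their deviations ran from -0.07 to 0.1. With the replicate block, TNF-α+WBT against TNF-α gave 0 genes at the adjusted threshold by limma, where 1 was found without it, and 1 gene of the 10 was lower in either comparison with Con, Mmp2 being lost (adjusted p 0.0562 and 0.0806). Mmp3, Mmp10 and Mmp13 rest on few fragments, no more than 34.8 estimated in any library. How far depth or the spread between libraries limits them was not tested.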
